A study of Mus musculus with 16 samples.

Results

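The interferon-stimulated genes (ISGs) were followed in adipose tissue macrophages (ATMs) from mice on a high-fat diet (HFD). The set was a list of 43 gene symbols covering the classical antiviral ISGs, the interferon-inducible GTPases and part of the antigen-processing machinery, and its members were the rows that carried those symbols. All 43 symbols were found among the 37310 genes of the count table, under 44 gene identifiers, because Psmb9 was listed under 2 of them. Both Psmb9 rows held 0 counts in all 16 libraries and Ifi44 held 0 to 5 counts, so 41 members passed the filter on low counts and were tested in every comparison.

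The ATMs were F4/80+ cells of epididymal adipose tissue from young adult male mice on a C57BL/6 background. They fell into 4 groups of 4 libraries: wild type (WT) and IRF5-KO after 4 weeks of HFD (ST-HFD, short term), and WT and IRF5-KO after 12 weeks of HFD (LT-HFD, long term). IRF5-KO animals carried floxed Irf5 together with LysM-Cre, which is expressed from the Lyz2 locus in myeloid cells, and the other animals are labelled WT. Whether the WT animals carried the floxed allele or the Cre alone is not given in the sources used here. All 16 libraries came from HFD-fed animals, so the set was not compared with a lean state, and diet duration cannot be told apart from age or from when the libraries were made. The labels tie replicate numbers to no animal, culture or day, so p-values measure the spread between these libraries.

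Type I interferons bind the IFNAR receptor and, through the kinases TYK2 and JAK1, lead STAT2 and IRF9 to the interferon-stimulated response element (ISRE) in ISG promoters. Interferon gamma signals through IFNGR to the gamma-activated site (GAS) and induces the GBP and IRG GTPases. The products block viral entry and replication (IFITM3, Mx, OAS, IFIT, viperin), sense foreign nucleic acid (RIG-I, MDA5), attack pathogen vacuoles (GBP, IRG) or feed peptides to MHC class I (PSMB8, TAP1). IRF5 is one of the transcription factors that act upstream, downstream of Toll-like receptors.

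The promoter sequences are shown first because the ISRE is the element through which type I interferons act on ISGs. The list was chosen as ISGs, so a higher share of the ISRE among its members describes the list and tests nothing. RefSeq promoter windows of 300 bases (250 before and 50 after the start, GRCm38.p6) were matched by symbol to 30 of the members whose identifier carried the same symbol in GENCODE M21. The ISRE core GAAANNGAAA, searched on both strands, was present in 18 of these 30 members (60.0%), against 3.99% of the 27025 genes with a window. It lay wholly upstream of the start in 15 of the 30 members, against 3.46% of all genes. The shorter GAS letters TTCNNNGAA, which read the same on both strands, were present in 8 of the 30 members (26.7%) and in 9.55% of all genes. By family, the ISRE core was found in 3 of 3 GBPs, 2 of 3 IFITs, 2 of 4 OAS genes, 2 of 3 IRGs and 2 of 2 HIN-200 genes. It was also in 2 of 2 nucleic acid sensors, 2 of 2 membrane restriction factors (Bst2 and Ifitm3) and in Stat2. The ISG15 system had it in 1 of 2 genes and the Rsad2 and Cmpk2 pair in 1 of 2. It was in 0 of the 2 antigen-processing genes and 0 of the 4 members outside these families with a window. The GAS letters were found in 1 of 3 GBPs (Gbp7), 1 of 3 IRGs (Igtp), 1 of 3 IFITs (Ifit2), 1 of 4 OAS genes (Oas1a), 1 of the 2 antigen-processing genes (Psmb8) and 0 of 2 HIN-200 genes, and also in Bst2, Ifitm3 and Ifi35. A match describes the letters of the window and is not a measured binding site.

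The following stretches, written 5′ to 3′ on the strand of the gene with the ISRE core of either orientation in capitals, belong to 7 members whose counts are described below.
Isg15: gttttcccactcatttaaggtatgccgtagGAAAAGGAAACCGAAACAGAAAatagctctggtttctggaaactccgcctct
Ifit1: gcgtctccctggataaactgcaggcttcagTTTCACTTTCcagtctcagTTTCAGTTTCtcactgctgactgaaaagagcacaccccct
Rsad2: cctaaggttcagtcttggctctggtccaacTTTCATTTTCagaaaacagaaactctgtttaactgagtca
Oas1a: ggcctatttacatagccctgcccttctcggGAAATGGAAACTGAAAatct
Gbp3: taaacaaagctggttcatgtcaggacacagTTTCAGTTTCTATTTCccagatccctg
Gbp7: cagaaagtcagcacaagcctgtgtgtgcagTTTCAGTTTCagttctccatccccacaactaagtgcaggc
Ifi205: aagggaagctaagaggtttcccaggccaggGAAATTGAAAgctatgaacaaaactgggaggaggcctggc
They lie at chr4:156200845-156200926 (Isg15, minus strand), chr19:34640755-34640843 (Ifit1, plus), chr12:26456533-26456602 (Rsad2, minus), chr5:120907526-120907575 (Oas1a, minus), chr3:142559969-142560025 (Gbp3, plus), chr3:142530253-142530322 (Gbp7, plus) and chr1:174031850-174031919 (Ifi205, minus). The Isg15 stretch holds 3 overlapping cores and Ifit1 holds 2 separate ones, while Rsad2, Gbp7 and Ifi205 hold 1 each upstream of the start. In Gbp3 and Oas1a 2 overlapping cores share their middle bases.

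Many members are neighbours in the genome (GRCm38, GENCODE M21). Ifit2, Ifit3 and Ifit1 lie between 34550694 and 34650009 on chromosome 19, and Gbp7, Gbp3 and Gbp2 between 142530342 and 142638008 on chromosome 3. Rsad2 and Cmpk2 are adjacent on chromosome 12 on opposite strands. The ends nearest each other are their starts, at 26456452 (Rsad2, minus strand) and 26469204 (Cmpk2, plus strand). The row named Gbp5 carries the identifier ENSMUSG00000040264, which GENCODE M21 names Gbp2b, a GTPase of the same cluster, so its values belong to that row and cannot be assigned to Gbp5 with certainty. Exons of Ifi203, Ifi47 and Igtp overlap exons of Mndal, Olfr56 and Irgm2 on the same strand, those of Oasl1, Ifi47, Dhx58, Ifi35, Parp9 and Psmb8 overlap another listed gene on the opposite strand, and the GBP, OAS, IFIT and HIN-200 genes have close paralogs, so reads of these genes may be shared.

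The libraries held 3279332 to 4958131 assigned counts, of which the 3 most abundant features took 18.6 to 34.5%, so 1 CPM (counts scaled by library total and edgeR's TMM factors) corresponded to 2.86 to 5.31 counts. Irf5 itself, as summed over its gene, was not lower in IRF5-KO (237.6 ± 23.2 CPM in WT and 262 ± 11.52 in IRF5-KO on ST-HFD, 193 ± 20.1 and 229 ± 26.5 on LT-HFD, SD, n = 4), and gene-level counts do not show whether the floxed exons were read. Lyz2, which hosts the Cre, was lower in IRF5-KO (log2 fold change -0.97 with adjusted p = 0.11 on ST-HFD, and -1.04 with adjusted p = 0.048 on LT-HFD), in the direction of the labels. All 8 macrophage markers examined, including Adgre1 and Csf1r, were detected in all 4 groups. Without Lyz2, the summed level of the other 7 overlapped between genotypes, at 4144 to 4313 CPM in WT and 4019 to 4375 CPM in IRF5-KO on ST-HFD and at 2787 to 3477 and 2980 to 3437 CPM on LT-HFD.

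Per length of exon, the member with the highest level in WT was Ifitm3, which encodes a membrane protein that blocks viral fusion, at 163.7 ± 26.9 RPKM (CPM per kilobase of exon) on ST-HFD and 162 ± 48.1 on LT-HFD. Ifi204, a HIN-200 DNA sensor, followed at 32.8 ± 3.93 and 36.2 ± 11.8 RPKM, and Psmb8, an immunoproteasome subunit, at 26.9 ± 5.69 and 33.4 ± 3.54 RPKM (SD, n = 4). The levels of Ifi204 and Psmb8 did not differ beyond their spread, whereas the lowest Ifitm3 library of these groups, at 100.1 RPKM, lay above the highest library of both. In IRF5-KO the same 3 members stood at 157.9 ± 35.7, 31.6 ± 8.60 and 22.2 ± 3.29 RPKM on ST-HFD and at 144.8 ± 23.6, 33.1 ± 5.26 and 28.1 ± 1.89 on LT-HFD. By library, Ifitm3 read 87.6, 130.5, 119 and 107 CPM in WT and 77.4, 136, 104 and 111 CPM in IRF5-KO on ST-HFD, and 113, 113, 67.9 and 147 CPM in WT and 112, 81.6, 87.4 and 112 CPM in IRF5-KO on LT-HFD. Ifi204 read 110.4, 137, 113 and 107 CPM in WT and 76.4, 148, 124 and 102 CPM in IRF5-KO on ST-HFD, and 111, 118, 96.5 and 190.3 CPM in WT and 132, 90.3, 125 and 123 CPM in IRF5-KO on LT-HFD. On ST-HFD, Psmb8 read 82.5, 119.6, 78.9 and 82.2 CPM in WT and 62.6, 89.3, 71.6 and 76.6 CPM in IRF5-KO. The genotypes overlapped in each of these comparisons. At the other end of the tested members, Oas3 averaged 1.04 RPKM over the WT groups.

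The members varied more between libraries of the same group than most genes did. The median within-group SD of log2(CPM + 0.5) was 0.44 over the 41 members and 0.28 over all 11560 genes tested. It was highest for Iigp1 (1.16), Mx2 (1.04) and Gbp2 (0.83) and lowest for Samd9l (0.15), Parp14 (0.16) and Ifi35 (0.17). This spread was shared by many members within a library. In WT ST-HFD, replicate 2 held the highest value of the group for 31 of the 41 members, against 30.7% of all genes, and in IRF5-KO ST-HFD replicate 2 did so for 33 of 41, against 25.3% of all genes. In WT LT-HFD, replicate 4 was highest for 21 of 41 members, against 28.2% of all genes. For the 8 GBP and IRG GTPases the count was 8 of 8 in both ST-HFD libraries numbered 2 and 6 of 8 in WT LT-HFD replicate 4. In IRF5-KO LT-HFD, replicate 1 was highest for 17 of the 41 members (41.5%), against 21.5% of all genes.

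**Figure D1:**
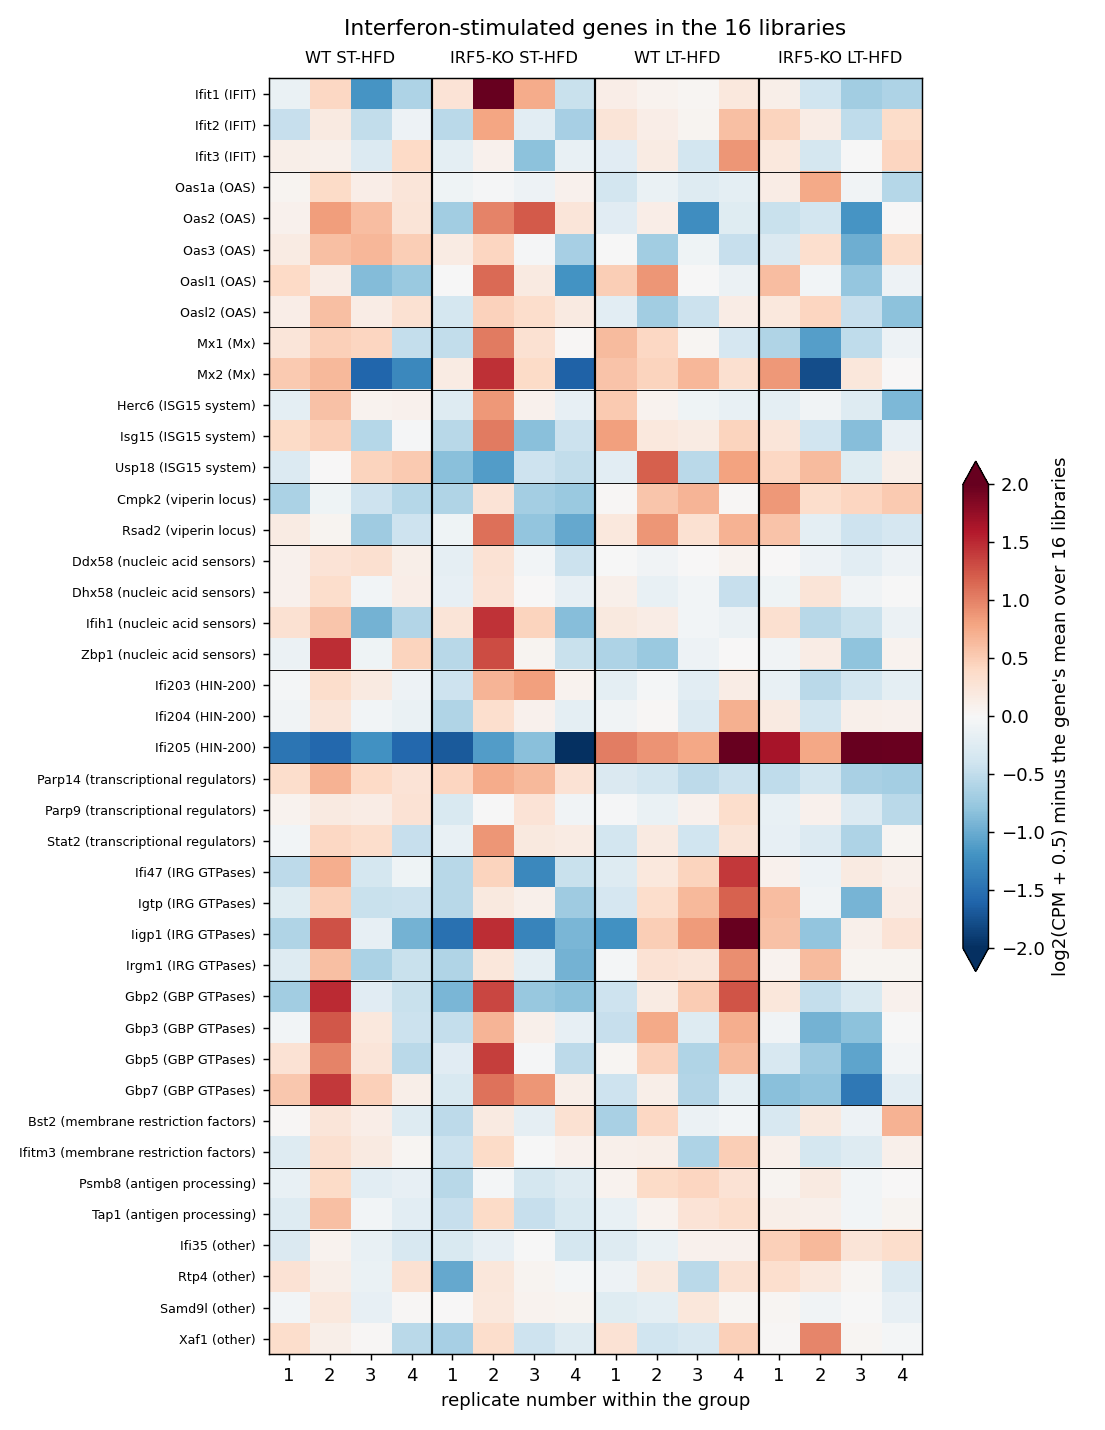
Heatmap of the 41 tested interferon-stimulated genes (rows, grouped by role) in the 16 libraries (columns, by group and replicate number). Colour gives log2(CPM + 0.5) minus the gene's mean over the 16 libraries. Replicate 2 of both ST-HFD groups is red across most rows, and Ifi205 turns from blue on ST-HFD to red on LT-HFD.

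**Figure D2:**
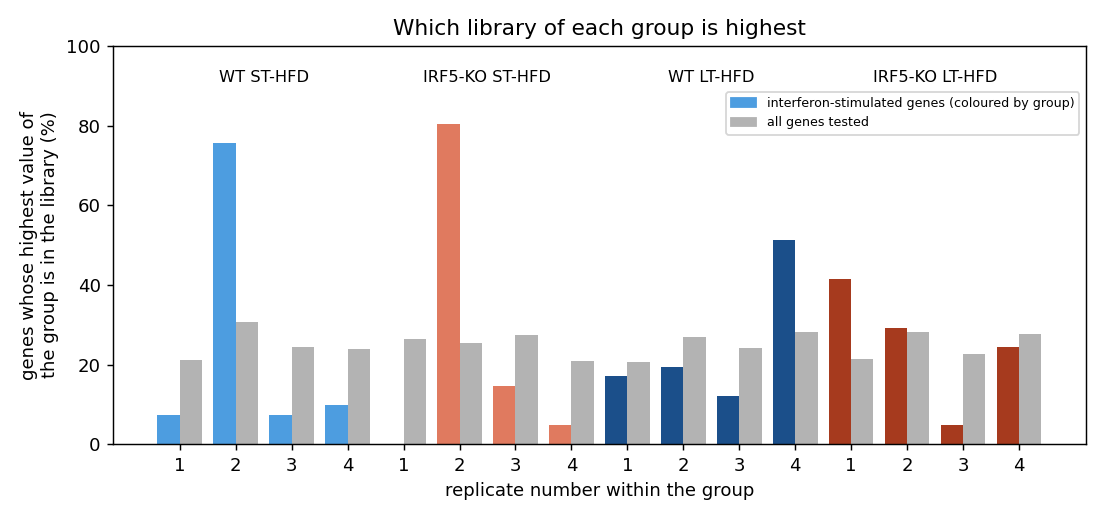
Share of genes (%) whose highest value within a group of 4 libraries was found in each library, for the 41 members (coloured bars) and all 11560 genes tested (grey bars). Replicate 2 of the ST-HFD groups holds 75.6% (WT) and 80.5% (IRF5-KO) of the members, and no member peaks in IRF5-KO ST-HFD replicate 1.

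Gbp2 and Iigp1 are given as examples of these library differences, chosen after their values were seen. Gbp2, a guanylate-binding protein that coats pathogen vacuoles, was measured at 21.1, 97.3, 29.4 and 25.3 CPM in the 4 WT ST-HFD libraries and at 18.05, 87.5, 20.1 and 19.2 CPM in IRF5-KO ST-HFD. On LT-HFD it was 25.8, 38.4, 49.0 and 82.6 CPM in WT and 40.4, 24.7, 27.8 and 36.8 CPM in IRF5-KO. One library of each ST-HFD group was thus several times above the other 3, and the genotypes overlapped at both durations. Iigp1, an immunity-related GTPase, read 5.66, 22.1, 7.84 and 4.33 CPM in WT and 2.81, 25.5, 3.23 and 4.43 CPM in IRF5-KO on ST-HFD, with the same library high in each. On LT-HFD Iigp1 spanned 3.53 to 48.9 CPM in WT and 4.88 to 13.5 CPM in IRF5-KO.

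Markers of other cell types moved with some of these libraries, and their part in the result was not tested. The summed level of 8 T and NK cell markers was 18.1 CPM in WT ST-HFD replicate 2 (7.16 to 10.4 in the other 3) and 30.6 CPM in IRF5-KO ST-HFD replicate 2 (3.01 to 8.12 in the other 3), of which Cd4 alone made up 11.8 and 23.7 CPM. In WT LT-HFD the sum was 10.1 CPM in replicate 4, the library with high GTPases, and 18.6 CPM in replicate 3. The summed fibroblast markers were 6824 CPM in WT LT-HFD replicate 4 and 2314 to 2706 CPM in the other 3. The T and NK cell sum ranged from 3.59 to 7.41 CPM in IRF5-KO LT-HFD. Summed conventional dendritic cell markers stood at 114 and 121 CPM in the 2 ST-HFD libraries numbered 2 and at 47.9 to 106 CPM in the other 6 ST-HFD libraries. Ifng had 0 to 3 counts in every library. In bulk samples, fewer cells of a type and less RNA per cell cannot be told apart.

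The first comparison asked whether myeloid loss of IRF5 altered the ISGs on ST-HFD. No member passed an adjusted p of 0.05 (edgeR quasi-likelihood test, 10958 genes), where 0.00913% of all genes did. At an unadjusted p under 0.05, 1 member was higher (Ifit1) and 1 lower (Usp18), against 1.84% of all genes, and DESeq2 gave the same counts, 0 and 2. Of the 41 members, 16 had a positive and 25 a negative log2 fold change, with a median of -0.09 beside 0.0035 over all genes tested. The median was -0.28 without IRF5-KO replicate 2, 0.02 without IRF5-KO replicate 1 and 0.14 without WT replicate 2, so its sign rested on single libraries.

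Usp18, the protease that removes ISG15 from proteins and blunts IFNAR signalling, was measured at 4.10, 5.11, 7.08 and 7.54 CPM in WT and at 2.61, 2.06, 3.70 and 3.45 CPM in IRF5-KO on ST-HFD. All 4 IRF5-KO libraries lay below all 4 WT libraries, from 8 to 16 counts against 21 to 40. The log2 fold change was -1.01 ± 0.31 (SE, adjusted p = 0.9998). Usp18 was the 1 member whose groups did not overlap here, against 1.47% of all genes.

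Ifit1, which binds viral RNA lacking a host cap, read 11.51, 16.9, 5.31 and 8.10 CPM in WT and 15.4, 55.3, 21.5 and 9.11 CPM in IRF5-KO. Replicate 2 was the highest in both groups and the groups overlapped. The log2 fold change was 1.25 ± 0.50 (adjusted p = 0.9998), and 0.55 ± 0.37 without IRF5-KO replicate 2. Oas1a, a synthetase of the 2-5A messenger that activates RNase L, had the next smallest p and read 20.9, 26.5, 22.0 and 23.7 CPM in WT against 18.8, 19.8, 18.7 and 21.4 CPM in IRF5-KO (log2 fold change -0.25 ± 0.13).

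On ST-HFD, all 4 pairs of libraries with the same replicate number had a positive correlation of their deviations (given in the methods), and a fit with the replicate number as a block gave 6 members at an unadjusted p under 0.05, against 4.12% of all genes in that fit. Ifit1 was higher (log2 fold change 1.10) and Usp18 (-1.0004), Gbp2 (-0.32), Ddx58 (-0.31), Psmb8 (-0.27) and Tap1 (-0.24) were lower. The lowest adjusted p among the members was 0.99. Without IRF5-KO replicate 2, 9 members were lower at an unadjusted p under 0.05 and 0 higher, where 1.08% of all genes in that fit were lower. That fit kept WT replicate 2, the library highest for 31 of the 41 members in its group. With neither library numbered 2 there were 4 members at this level, 3 of them lower (0.986% of all genes were lower). Without WT replicate 2 alone there were 2, of which 1 was lower (1.28% of all genes).

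**Figure D3:**
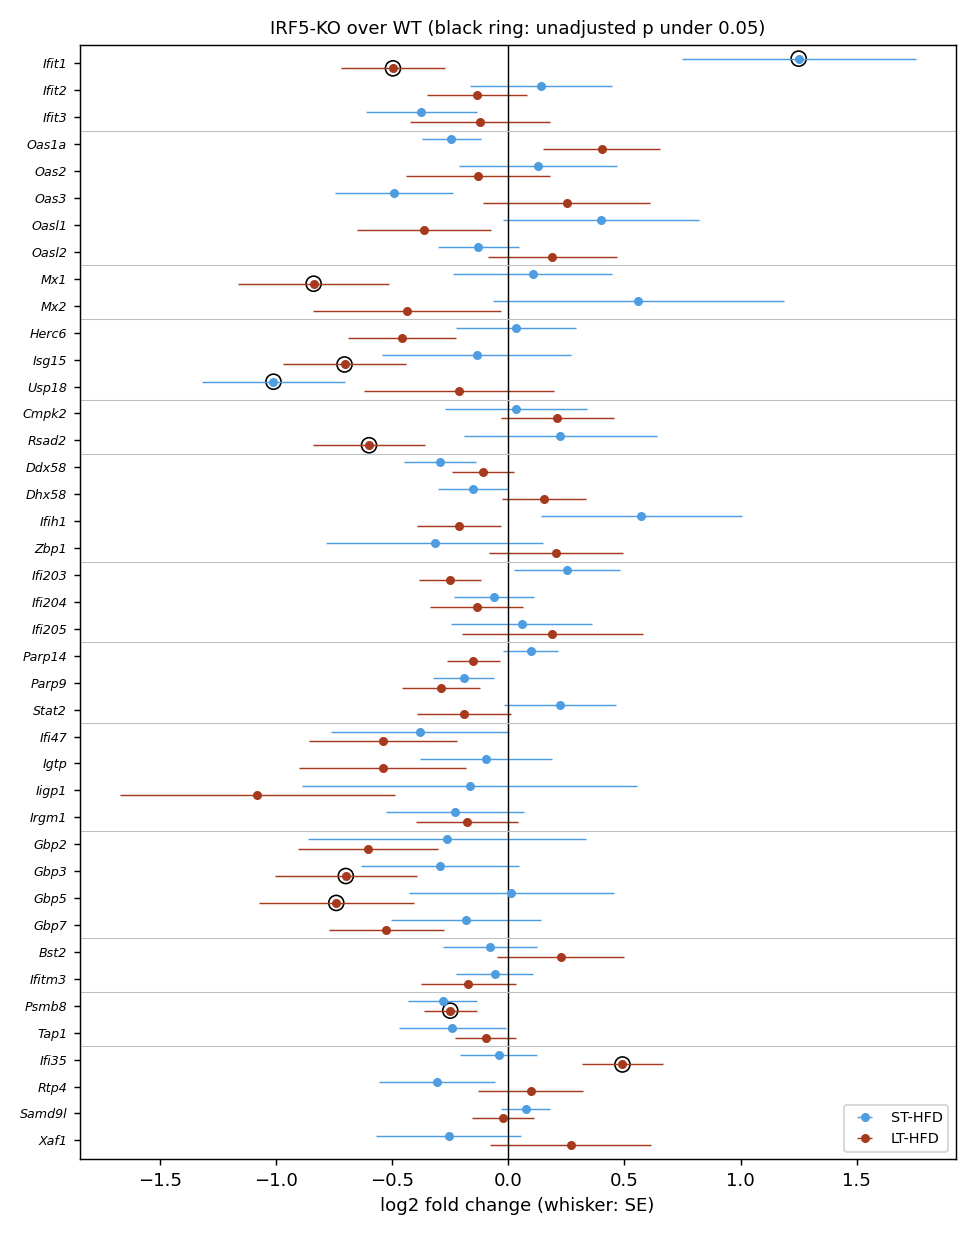
Log2 fold change of IRF5-KO over WT with its SE for the 41 tested members, on ST-HFD (blue) and LT-HFD (red), with horizontal lines between role groups. Black rings mark an unadjusted p under 0.05, and no member passed an adjusted p of 0.05. On LT-HFD the 4 GBP and 4 IRG genes all lie left of 0.

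On LT-HFD the same contrast again gave no member at an adjusted p under 0.05 (10987 genes, 0.0182% of all genes), and the lowest adjusted p of a member was 0.85. At an unadjusted p under 0.05, 7 members were lower in IRF5-KO, against 3.50% of all genes, and 1 was higher, against 2.23%, so 8 of 41 in all beside 5.72% of all genes. DESeq2 gave 0 members at an adjusted p under 0.05 and 6 at an unadjusted p under 0.05. In all, 30 members had a negative and 11 a positive log2 fold change, with a median of -0.18 beside 0.00042 over all genes. The median remained negative without any single library, between -0.27 and -0.09. The count of 8 was 2 without WT replicate 2 (2.99% of all genes in that fit) or without IRF5-KO replicate 3 (3.48%), 4 without IRF5-KO replicate 2 (3.80%), and 5 without WT replicate 4 (8.94%). It was 4 (1 higher, 3 lower) without scaling factors and 2 (1 higher, 1 lower) in the fit over 16 libraries, where 6.25% of all genes were at this level.

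The members lower in IRF5-KO on LT-HFD at this level were Isg15, Mx1, Rsad2, Gbp3, Ifit1, the Gbp5 row and Psmb8. Isg15, the ubiquitin-like modifier conjugated to proteins after interferon, read 20.1, 12.9, 12.5 and 15.2 CPM in WT and 13.3, 8.40, 5.90 and 9.88 CPM in IRF5-KO. The groups overlapped through the highest IRF5-KO library alone, and the log2 fold change was -0.71 ± 0.26 (adjusted p = 0.85). On ST-HFD the same gene showed 14.6, 15.6, 7.34 and 10.9 CPM in WT and 7.42, 23.4, 6.01 and 8.12 CPM in IRF5-KO, with a log2 fold change of -0.14 ± 0.41.

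Mx1, a dynamin-like GTPase gene that carries a deletion in C57BL/6 mice and there encodes no functional antiviral protein, was at 11.1, 9.43, 7.23 and 5.44 CPM in WT LT-HFD and 4.42, 2.98, 4.78 and 6.49 CPM in IRF5-KO LT-HFD. One IRF5-KO library lay inside the WT range. The log2 fold change was -0.84 ± 0.33, from 11 to 41 counts per library. Mx2, its neighbour on chromosome 16, differed by -0.44 ± 0.41.

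Rsad2, which encodes the antiviral enzyme viperin, read 25.0, 40.2, 26.7 and 35.3 CPM in WT LT-HFD and 32.1, 18.7, 16.01 and 17.0 CPM in IRF5-KO LT-HFD. Its fold change was -0.60 ± 0.24 on the log2 scale, and replicate 1 of IRF5-KO stood apart from the other 3. The adjacent Cmpk2, a mitochondrial nucleotide kinase, had a log2 fold change of 0.21 ± 0.24. Ifit1 was nearly constant in WT LT-HFD at 13.8, 13.3, 13.1 and 14.7 CPM and lower in 3 of the 4 IRF5-KO libraries, at 13.8, 9.49, 7.58 and 8.03 CPM (log2 fold change -0.50 ± 0.22).

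All 4 GBP and all 4 IRG GTPases had a negative log2 fold change on LT-HFD, under TMM, RLE and no scaling factors alike, from -0.18 (Irgm1) to -1.08 (Iigp1). Gbp3 read 33.4, 78.3, 38.7 and 76.7 CPM in WT and 44.0, 23.9, 26.1 and 46.0 CPM in IRF5-KO (log2 fold change -0.70 ± 0.31), with overlapping groups. The Gbp5 row read 8.96, 12.2, 5.56 and 13.9 CPM in WT and 6.91, 5.15, 3.93 and 8.34 CPM in IRF5-KO (-0.74 ± 0.33). Gbp2 (-0.60 ± 0.30), Gbp7 (-0.52 ± 0.25) and Iigp1 (-1.08 ± 0.59) had an unadjusted p above 0.05. Without WT LT-HFD replicate 4, the library highest for 6 of these 8 genes, all 4 GBPs and 3 of the 4 IRGs kept a negative value. On ST-HFD 7 of the 8 were negative, but without WT ST-HFD replicate 2 only 1 of the 8 was, and without IRF5-KO ST-HFD replicate 2 all 8 were.

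Among the other families on LT-HFD, 3 of 3 IFITs, 2 of 2 Mx genes, 3 of 3 genes of the ISG15 system and 3 of 3 transcriptional regulators (Stat2, Parp9 and Parp14) had negative values, whereas 3 of the 5 OAS genes and 2 of the 4 nucleic acid sensors had positive ones. Psmb8 was at 96.3, 119.8, 123 and 112 CPM in WT and 95.4, 104, 88.8 and 92.7 CPM in IRF5-KO (-0.25 ± 0.11). Tap1, the peptide transporter beside it on chromosome 17, differed by -0.10 ± 0.13.

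Ifi35, which forms a cytosolic complex with NMI, went the other way. It read 10.9, 11.9, 13.9 and 13.9 CPM in WT LT-HFD and 18.2, 20.6, 15.7 and 16.7 CPM in IRF5-KO LT-HFD, and all IRF5-KO libraries lay above all WT libraries. The log2 fold change was 0.49 ± 0.18 (adjusted p = 0.85), and Ifi35 was the 1 member whose groups did not overlap, against 3.01% of all genes. Its exons overlap Gm11626 on the opposite strand. Beside the genotype results on LT-HFD, the summed adipocyte markers were 163 to 359 CPM in IRF5-KO and 136 to 175 CPM in WT, mostly Fabp4, and the conventional dendritic cell markers were 24.4 to 81.2 CPM in IRF5-KO and 51.2 to 136 CPM in WT. The summed monocyte markers were lower in IRF5-KO, at 115.6, 96.2, 128.4 and 105 CPM against 175, 160.4, 140.2 and 128.3 CPM in WT, and the groups touched at their edge. The summed fibroblast markers read 5377, 2359, 3859 and 4275 CPM in IRF5-KO and 2706, 2585, 2314 and 6824 CPM in WT, with overlapping groups. The part of these cells in the genotype differences was not tested.

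**Figure D4:**
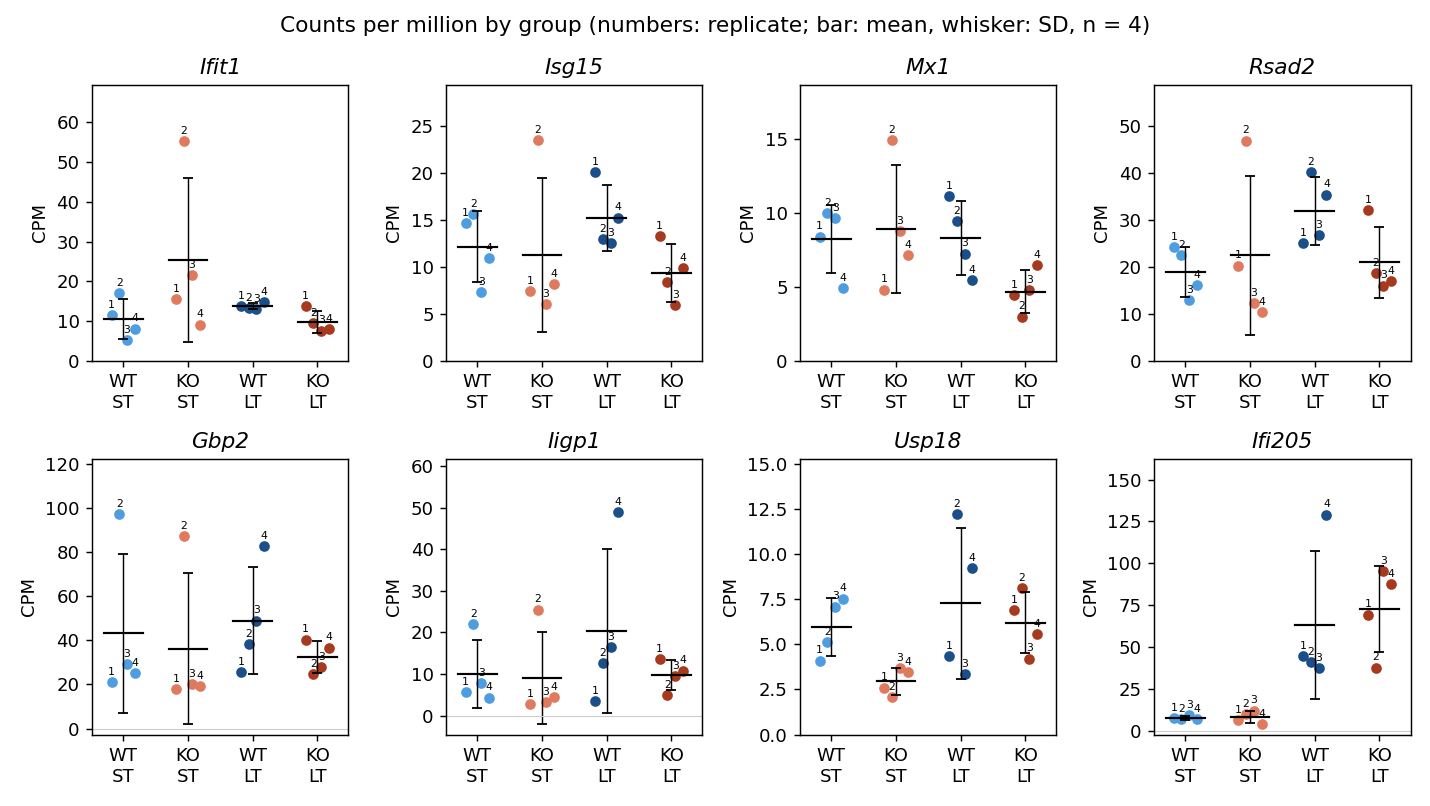
CPM of 8 members in each library, by genotype (WT, KO for IRF5-KO) and diet duration (ST, LT), with the mean (bar) and SD (whisker, n = 4). Small numbers are replicate numbers. Replicate 2 is the highest library of both ST-HFD groups for Ifit1, Gbp2 and Iigp1, and Ifi205 is higher in every LT-HFD library than in every ST-HFD library.

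Whether the effect of genotype differed between the diet durations was tested as an interaction over all 16 libraries (11560 genes). No member passed an adjusted p of 0.05, nor did any other gene (0% of all genes), by edgeR or, for the members, by DESeq2. At an unadjusted p under 0.05 there were 3 members, against 3.93% of all genes, and DESeq2 gave 2. Ifit1 had an interaction of -1.75 ± 0.62 on the log2 scale (adjusted p = 0.97), from the difference between 1.25 on ST-HFD and -0.50 on LT-HFD, and the value was -1.04 ± 0.46 without IRF5-KO ST-HFD replicate 2. Oas1a (0.64 ± 0.29) and Ifi35 (0.53 ± 0.22) had positive interactions. In Oas1a, IRF5-KO LT-HFD read 22.4, 34.4, 19.1 and 13.3 CPM beside 15.5, 18.2, 16.7 and 17.4 CPM in WT LT-HFD, so the IRF5-KO libraries enclosed the WT range. With neither ST-HFD library numbered 2, 1 member was left at this level. A difference of the genotype effect between ST-HFD and LT-HFD was thus not detected for the set at this number of libraries.

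The last comparison followed the ISGs from ST-HFD to LT-HFD within each genotype, with durations as the titles and time labels of the libraries give them. Read by eye, a plot in the paper of the study draws the WT libraries with less Irf5 as ST-HFD, whereas under these labels Irf5 was lower on LT-HFD. Which of these is right was not settled here, and if the labels were exchanged, every rise and fall over time would turn and the ST-HFD and LT-HFD genotype results would change places. In WT, 4 of the 41 members passed an adjusted p of 0.05, whereas 25.3% of all 11560 genes did. Of these, Ifi205 and Cmpk2 rose (12.1% of all genes rose) and Parp14 and Gbp7 fell (13.2% fell). In IRF5-KO, 9 of 41 passed beside 32.8% of all genes, with Ifi205, Ifi35, Cmpk2 and Usp18 higher (15.6% of all genes) and Parp14, Gbp7, Ifi203, Ifit1 and Oas2 lower (17.2%). DESeq2 gave the same counts of 4 and 9. The groups did not overlap for 7 members in WT, against 26.1% of all genes, and for 5 members in IRF5-KO, against 29.4%. At an adjusted p of 0.05 the set therefore held a smaller share of called genes than the table as a whole in both genotypes. With an unadjusted p under 0.05 and a log2 fold change beyond 1 in size, the order held in WT (2.44% of members, 10.6% of all genes) and turned in IRF5-KO (14.6% of members, 12.7% of all genes). The median size of the log2 fold change was 0.27 over the members and 0.31 over all genes in WT. In IRF5-KO it was 0.35 and 0.37. The members also spread more within groups (median SD 0.44 against 0.28), so a smaller share of calls does not show smaller changes. The part of this spread was not tested.

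Ifi205, a HIN-200 family member, had the largest change. It stood at 7.61, 6.97, 9.11 and 6.97 CPM in WT ST-HFD and at 44.8, 40.9, 37.5 and 129 CPM in WT LT-HFD. In IRF5-KO it went from 6.42, 9.77, 12.0 and 3.94 CPM to 69.4, 37.7, 95.5 and 87.4 CPM. Every LT-HFD library was above every ST-HFD library in both genotypes. The log2 fold change was 3.05 ± 0.42 in WT (adjusted p = 4.45e-05) and 3.17 ± 0.42 in IRF5-KO (adjusted p = 2.15e-05).

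The other 2 HIN-200 genes did not share this rise, with log2 fold changes in WT of 0.14 ± 0.21 (Ifi204) and -0.17 ± 0.21 (Ifi203). In IRF5-KO Ifi203 read 40.3, 86.7, 95.2 and 56.1 CPM on ST-HFD and 48.4, 36.9, 41.3 and 46.6 CPM on LT-HFD, and fell by 0.68 on the log2 scale (adjusted p = 0.018) with overlapping durations. The call was lost in a fit of the 8 IRF5-KO libraries alone (-0.68) and without ST-HFD replicate 2 or 3 or LT-HFD replicate 2 (-0.61 to -0.49). The summed level of the fibroblast markers Pdgfra, Col1a1, Col3a1 and Dcn moved with Ifi205. It ranged from 795 to 899.8 CPM in WT ST-HFD and 547 to 1309.8 CPM in IRF5-KO ST-HFD. On LT-HFD it ranged from 2314 to 6824 CPM in WT and 2359 to 5377 CPM in IRF5-KO. Within WT LT-HFD, replicate 4 had both the highest Ifi205 and the highest fibroblast sum (6824 CPM, 2314 to 2706 in the other 3), and within IRF5-KO LT-HFD, replicate 2 had the lowest of both, while the highest Ifi205 was in replicate 3 and the highest fibroblast sum in replicate 1. The part of these cells in the result was not tested.

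**Figure D5:**
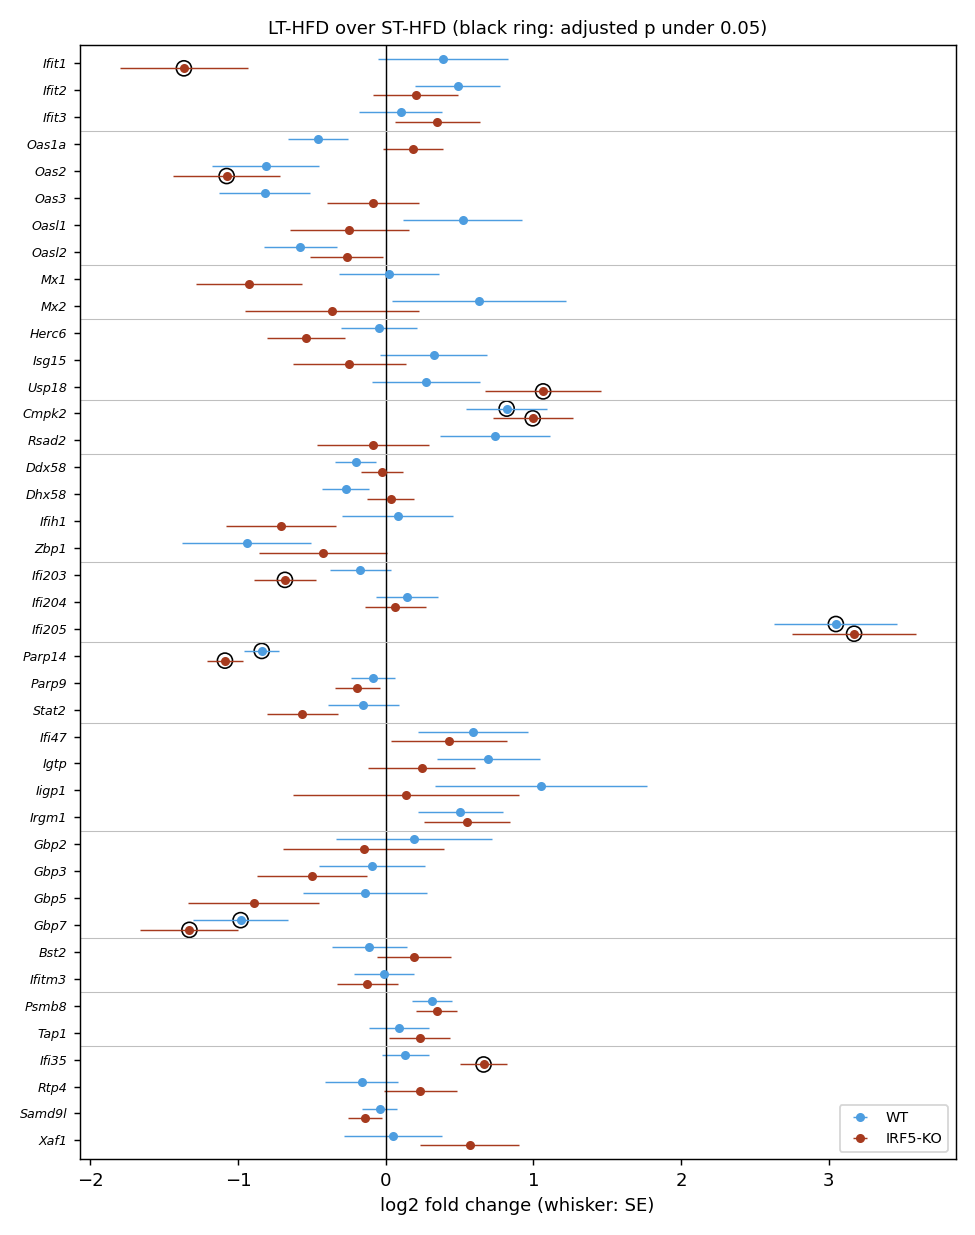
Log2 fold change of LT-HFD over ST-HFD with its SE for the 41 tested members in WT (blue) and IRF5-KO (red), grouped by role. Black rings mark an adjusted p under 0.05, which 4 members passed in WT and 9 in IRF5-KO. Ifi205 lies near 3 in both genotypes and Parp14 near -1.

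Parp14, a mono-ADP-ribosyltransferase, was the most clearly separated of the members that fell. Its libraries read 147, 187, 153 and 139.7 CPM in WT ST-HFD against 95.0, 89.8, 80.1 and 85.4 CPM in WT LT-HFD, and 155, 195, 182 and 141 CPM against 81.0, 89.2, 73.9 and 72.3 CPM in IRF5-KO. No LT-HFD library reached an ST-HFD library in either genotype. Over the same interval the summed macrophage markers other than Lyz2 were lower in every LT-HFD library than in any ST-HFD library (4019 to 4375 CPM on ST-HFD and 2787 to 3477 CPM on LT-HFD over both genotypes), and the fibroblast sums given above were higher in every one. The part of these cells in the changes over time was not tested. The log2 fold changes were -0.84 ± 0.12 (adjusted p = 6.9e-05) and -1.09 ± 0.12 (adjusted p = 3.71e-06).

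Gbp7 fell from 47.8, 88.2, 45.5 and 35.2 to 24.4, 35.3, 21.7 and 28.5 CPM in WT (log2 fold change -0.98 ± 0.32, adjusted p = 0.032) and from 26.5, 69.7, 60.8 and 35.4 to 17.97, 18.7, 11.8 and 28.1 CPM in IRF5-KO (-1.33 ± 0.33, adjusted p = 0.0053). The durations touched at their edges in both genotypes. The call in WT was lost without ST-HFD replicate 2, where the value was -0.65, and without LT-HFD replicate 1, 3 or 4, while the call in IRF5-KO held with any 1 of its libraries left out. The other GBPs did not pass, and their values lay between -0.14 and 0.19 in WT and between -0.89 and -0.15 in IRF5-KO. The 4 IRG genes had positive values in both genotypes, up to 1.05 ± 0.72 for Iigp1 in WT, and none of the 4 passed the test.

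Cmpk2 rose from 4.29, 6.50, 5.06 and 4.52 to 7.06, 10.5, 11.4 and 7.07 CPM in WT (0.82 ± 0.27, adjusted p = 0.035) and from 4.41, 8.49, 4.16 and 3.94 to 13.0, 8.95, 9.55 and 10.2 CPM in IRF5-KO (0.995 ± 0.271, adjusted p = 0.0094). Durations did not overlap in either genotype, at 16 to 47 counts per library. The call in WT was lost with no filter on low counts and without ST-HFD replicate 1, 3 or 4 or LT-HFD replicate 2 or 3 (0.68 to 0.82 in these fits), while the call in IRF5-KO held with any 1 of its libraries left out. Its neighbour Rsad2 had log2 fold changes of 0.74 ± 0.37 in WT, where the durations did not overlap but the adjusted p was 0.16, and -0.09 ± 0.38 in IRF5-KO.

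The remaining calls were made in IRF5-KO alone, and for none of them did the interaction pass an adjusted p of 0.05. Ifi35 rose from 10.4, 11.6, 12.9 and 10.1 to 18.2, 20.6, 15.7 and 16.7 CPM (0.66 ± 0.16, adjusted p = 0.0037), with a value of 0.13 ± 0.16 in WT. Usp18 rose by 1.07 ± 0.39 (adjusted p = 0.045) from its low ST-HFD values to 6.91, 8.13, 4.21 and 5.56 CPM, with 0.27 ± 0.36 in WT. The call for Usp18 was lost when any of 7 of the 8 IRF5-KO libraries was left out, the exception being LT-HFD replicate 3, and also with no filter (1.05) and with the replicate block (1.04).

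Ifit1 fell by 1.37 on the log2 scale in IRF5-KO (SE 0.44, adjusted p = 0.023), and the value was -0.66 and no longer called without IRF5-KO ST-HFD replicate 2, its library at 55.3 CPM. The call was also lost without LT-HFD replicate 3 or 4 (-1.26 and -1.29) and in the 8 IRF5-KO libraries alone (-1.36). Oas2, a further 2-5A synthetase, read 11.6, 38.3, 45.3 and 22.6 CPM on ST-HFD and 13.8, 14.6, 8.15 and 19.2 CPM on LT-HFD (-1.08 ± 0.36, adjusted p = 0.031), with overlapping durations. This call was lost in a fit of the 8 IRF5-KO libraries alone (-1.07) and without ST-HFD replicate 2 or 3 or LT-HFD replicate 1, 2 or 3 (-1.10 to -0.79). In WT all of Oas1a, Oas2, Oas3 and Oasl2 had negative values between -0.46 and -0.82, each at an unadjusted p under 0.05 and none at an adjusted p under 0.05, while 2083 of all 11560 genes were lower at the same level. The fifth OAS gene, Oasl1, had a positive value of 0.52 ± 0.40 in WT.

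The upstream genes of the pathway were read from a separate list of 32 genes, of which 31 were found and 24 tested. None passed an adjusted p of 0.05 between genotypes, and the counts at an unadjusted p under 0.05 were 0 on ST-HFD (1.84% of all genes) and 3 on LT-HFD, all lower in IRF5-KO (3.50% of all genes were lower). Of the ligands, Ifnb1 alone had enough counts to be tested. It read 8.39, 12.1, 3.04 and 5.28 CPM in WT ST-HFD, 7.22, 19.3, 11.6 and 4.18 CPM in IRF5-KO ST-HFD, 22.0, 20.96, 13.1 and 9.51 CPM in WT LT-HFD and 10.5, 1.63, 5.90 and 8.34 CPM in IRF5-KO LT-HFD. The IRF5-KO libraries were the lower ones on LT-HFD, with an overlap of 1 library (log2 fold change -1.32 ± 0.43, adjusted p = 0.85), and on ST-HFD the difference was 0.53 ± 0.47. Tlr9, an endosomal DNA receptor, was the second (-0.57 ± 0.17), and Irf1, a factor that binds ISRE-like sequences, the third (-0.33 ± 0.14).

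Over time, 7 of the 24 upstream genes (29.2%) passed an adjusted p of 0.05 in WT, near the 25.3% of all genes, and 4 (16.7%) in IRF5-KO, below the 32.8% of all genes. In WT the feedback inhibitors Socs1 (1.45 ± 0.35) and Socs3 (1.061 ± 0.37) rose, and the kinases Jak1 (-0.32 ± 0.10) and Tyk2 (-0.55 ± 0.16), the receptor Tlr9 (-0.60 ± 0.20), the adaptor Mavs (-0.53 ± 0.18) and Irf5 (-0.30 ± 0.11) fell. In IRF5-KO Jak1 (-0.40), Tyk2 (-0.60) and Tlr9 (-0.97) fell and Ifngr1 rose (0.37). Plasmacytoid dendritic cells also express Tlr9. The summed level of 6 markers of those cells was 126 to 194 CPM on ST-HFD and 70.2 to 118 CPM on LT-HFD in IRF5-KO. In WT it was 123 to 165 and 93.5 to 125 CPM. Of the 6 markers, 2 had 0 counts in all WT ST-HFD libraries and 1 in all libraries of each other group. The sum therefore rests on fewer genes and does not count cells. The part of these cells in the result was not tested. Socs1 had a value of 0.54 ± 0.35 in IRF5-KO, and its interaction did not pass (-0.90 ± 0.50, adjusted p = 0.97).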

How the data were processed

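Total RNA of F4/80+ ATMs was made into stranded, ribodepleted libraries (SMARTer Pico v2) and sequenced in pairs. The authors deposited 1 table of raw read counts per gene for 16 libraries, and fastp 0.19.11 and STAR 2.7.3a with mouse builds mm10 and mm9 are named in the submitters' processing notes. The annotation release and the strand setting of the counting are not given in the sources used here. Libraries were grouped by title, which the time labels match, and no library pair agreed within counting noise (lowest chi-square per degree of freedom 4.22).

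The main test was edgeR 4.0.16 (R 4.3.3) with TMM factors, its default filter, the quasi-likelihood test and Benjamini-Hochberg adjustment over all genes tested. Genotype was fitted within each duration (8 libraries), and the interaction and diet duration over 16. Steps were tested on simulated data. DESeq2 1.42.0 and the other alternatives appear in the closing section. Marker and pathway lists, role groups and members were chosen with earlier results of these data known. Values for every library are given for up to 5 called members per direction of each duration comparison, for the 3 smallest p-values of each other comparison and for the 3 highest levels per exon length (GENCODE M21). Others were named after their values were seen.

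Replicate numbers were taken as pairs where every same-numbered WT and IRF5-KO correlation of deviations from the group means was over 0.1, which held on ST-HFD (0.37, 0.48, 0.18 and 0.30 over 9765 genes) but not on LT-HFD (-0.07, -0.15, 0.06 and 0.23). Pairs with different numbers spanned -0.51 to 0.47 on ST-HFD, where WT replicate 4 correlated best with IRF5-KO replicate 1, and -0.42 to 0.45 on LT-HFD, and no label says that numbers pair libraries.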

Additional observations from a re-analysis of the deposited data

Results flagged for a closer look

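Within a group of 4 libraries, 13 of 164 member and group pairs (7.93%) had 1 library far above the other 3 by Dixon's test. For normally spread values, chance alone flags about 1 in 20 groups when libraries far above and far below both count. All 13 were above. The rule was applied to CPM without a log, where high values stand out more. The share of all genes flagged by it was not computed, so the count is not read as a trait of the members. Members measured in 1 library are not independent. IRF5-KO ST-HFD replicate 2 was the library concerned for Gbp2 (87.5 CPM, 18.05 to 20.1 in the others), Iigp1 (25.5 CPM, 2.81 to 4.43), the Gbp5 row (23.7 CPM, 5.91 to 8.55), Isg15 (23.4 CPM, 6.01 to 8.12), Tap1 (61.0 CPM, 33.7 to 37.7) and Cmpk2 (8.49 CPM, 3.94 to 4.41). WT ST-HFD replicate 2 was concerned for Gbp2 (97.3 CPM, 21.1 to 29.4), Psmb8 (119.6 CPM, 78.9 to 82.5) and Igtp (15.8 CPM, 8.10 to 9.37).

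On LT-HFD, Ifi205 stood apart in WT replicate 4 (129 CPM, 37.5 to 44.8 in the others). In IRF5-KO LT-HFD, replicate 2 was far above the rest for Irgm1 (43.9 CPM, 29.0 to 29.3) and Xaf1 (11.7 CPM, 5.56 to 5.90), and replicate 1 for Rsad2 (32.1 CPM, 16.01 to 18.7).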

How the results depend on the processing

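No member was called between genotypes or for the interaction under DESeq2, RLE factors, the 3 most abundant features left out, no filter, a stricter filter, the replicate block or any 1 library left out. When a call needed only a log2 fold change beyond 1 in size with an unadjusted p below 0.05, 2 members were called on ST-HFD, 1 for the interaction, 0 on LT-HFD, 1 for diet duration in WT and 6 for diet duration in IRF5-KO (14.6% of members), beside 0.164%, 1.31%, 0.692%, 10.6% and 12.7% of all genes. The count of members at an unadjusted p under 0.05 on ST-HFD was 2, and became 6 with the replicate block, 4 with neither ST-HFD library numbered 2 (an alternative chosen after seeing the data, 1.88% of all genes) and 1 to 9 with 1 library left out (1.48 to 3.80% of all genes). It was 1 without WT replicate 1, 3 or 4 and 9 without IRF5-KO replicate 2. On LT-HFD, where replicate numbers did not pair, the count of 8 became 2 in the fit over 16 libraries (6.25% of all genes), 2 to 7 with 1 library left out (2.99 to 8.94%), 6 with the replicate block and 4 (1 higher, 3 lower) without scaling factors. For the interaction the count of 3 became 1 with neither ST-HFD library numbered 2 (4.01%) and 1 to 4 with 1 library left out (2.57 to 6.23%), the lowest without WT ST-HFD replicate 2, WT LT-HFD replicate 1 or IRF5-KO LT-HFD replicates 1 or 2. Members called for diet duration in WT numbered 4, and 7 in the genotype's own 8 libraries (17.1% of members, 22.2% of all genes), 7 with neither ST-HFD library numbered 2 (17.1%, 20.3% of all genes) and 2 to 5 with 1 library left out (4.88 to 12.2%, 18.3 to 24.3% of all genes; 2 without WT LT-HFD replicate 3). In IRF5-KO they ranged from 6 to 10 with 1 library left out (14.6 to 24.4%, 25.8 to 32.0% of all genes). In each of these fits the share of members called was below that of all genes. The cause of these shifts was not tested. The median log2 fold change changed sign with single libraries on ST-HFD, for the interaction and for both durations (in IRF5-KO from -0.09 to 0.22 without ST-HFD replicate 2), but not on LT-HFD. Among the values of single members under the alternatives, 335 kept their direction and side of the threshold and 38 kept only their direction, among them Gbp7 and Cmpk2 in WT and Usp18, Ifi203, Ifit1 and Oas2 in IRF5-KO. Members such as Usp18, at 8 to 40 counts per library, were measured with limited precision.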
